A study of Mus musculus with 4 samples.

Results

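The collagen genes are described here across 4 mouse mammary gland tumours. They were chosen by name, with earlier results of these data known. The rule takes the genes whose symbol is Col, a number, a and a number. It leaves out Col17a1 and Col9a3 and states no reason for it. Col9a3, the remaining chain of type IX collagen, is therefore not counted below, although it passed the test of spread used there (SD of log2 CPM 1.40). Of 28440 genes in the count table, 42 met the rule, and they fall into fibrillar, basement membrane, FACIT, beaded and transmembrane classes plus a few smaller ones. The tumours, numbered 1 to 4, form 1 group of genotype MMTV-R26Met, in which mammary epithelium expresses a transgene of the receptor tyrosine kinase Met from the Rosa26 locus, a model of triple-negative breast cancer. Every tumour carries the transgene, and no normal gland, other genotype or treatment is among the samples, so the question is which collagens these tumours express and how far single tumours differ. Poly-A RNA of whole tumour tissue was sequenced, so epithelial, stromal and vascular transcripts are read together, and fewer cells of a type and less RNA per cell cannot be told apart. The labels give neither the age of the mice nor the number of mice behind the tumours, and p-values therefore measure nothing beyond the spread between these libraries.

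Collagens are extracellular matrix proteins whose chains wind around one another into a triple helix built from Gly-X-Y repeats. Fibrillar collagens form the tensile cables of connective tissue and are made mainly by fibroblasts. Type IV collagen forms the sheet-like network of basement membranes, which underlies mammary epithelium and surrounds vessels. FACIT collagens sit on the surface of fibrils, beaded filaments of type VI link cells to the surrounding matrix, and transmembrane collagens stay anchored in the cell that makes them. In breast tumours, dense fibrillar collagen and breaches of the basement membrane are long-studied features of the stroma.

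The libraries held 35220504 to 42809015 counts. Of the 42 collagen genes, 34 passed a filter that asks for about 10 counts in every library, among 15808 genes that did. The other 8 were Col2a1, Col11a2, Col4a3, Col19a1, Col22a1, Col6a4, Col6a5 and Col10a1. The 6 epithelial markers of the labelled tissue summed to 2405 to 3728 CPM. CPM are counts scaled to a common library size after TMM normalisation, a correction for differing RNA composition. Krt8 had 784 to 1232 CPM, while Cldn4 had 0, 24, 21 and 26 counts in tumours 1 to 4 and failed the filter. The 10 fibroblast markers were all detected and summed to 216 to 265 CPM, of which Fbln2 alone had 185.6 of 265 CPM in tumour 1. Their mean deviation in log2 CPM was -0.45, 0.26, 0.07 and 0.13 in tumours 1 to 4, lowest in tumour 1. The 8 endothelial markers summed to 168 to 222 CPM and the 7 pericyte markers to 274 to 468 CPM, and none of these markers passed the test of spread described below. Tumour 3 held skeletal muscle transcripts, whose 5 markers summed to 883 CPM there and to 0.999 to 1.39 CPM elsewhere, and the highest sum of 5 Schwann cell markers, 46.7 CPM against 1.41 to 12.8 CPM. Tumour 4 held the most basal epithelial transcripts, with Krt5, Krt14 and Trp63 summing to 223 CPM against 6.30 to 30.9 CPM.

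Together the collagens held 0.878, 0.865, 1.118 and 0.709% of all counts in tumours 1 to 4, averaging 0.892 ± 0.169% (SD, n = 4). The exact binomial 95% interval of the share in tumour 3 was 1.115 to 1.122%, which covers counting error only. Tumour 3 held the largest share and tumour 4 the smallest. The fibrillar class was the largest in each tumour. It made up 40.0, 41.1, 41.5 and 57.75% of the collagen counts in tumours 1 to 4, so tumour 4, with the fewest collagen counts relative to its library, had the most fibrillar makeup. Basement membrane chains held 17.3 to 21.7% of the collagen counts and FACIT chains 12.3 to 21.0%. The multiplexins, basement membrane zone proteoglycan collagens, held 5.57, 8.16, 16.5 and 1.98% in tumours 1 to 4, highest in tumour 3 and lowest in tumour 4. Most of this class was Col18a1, without which its mean share of all counts was 0.0067%, against 0.0794% with it. In tumour 4, Col18a1 had 4316 of the 5864 counts of the class.

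**Figure D1:**
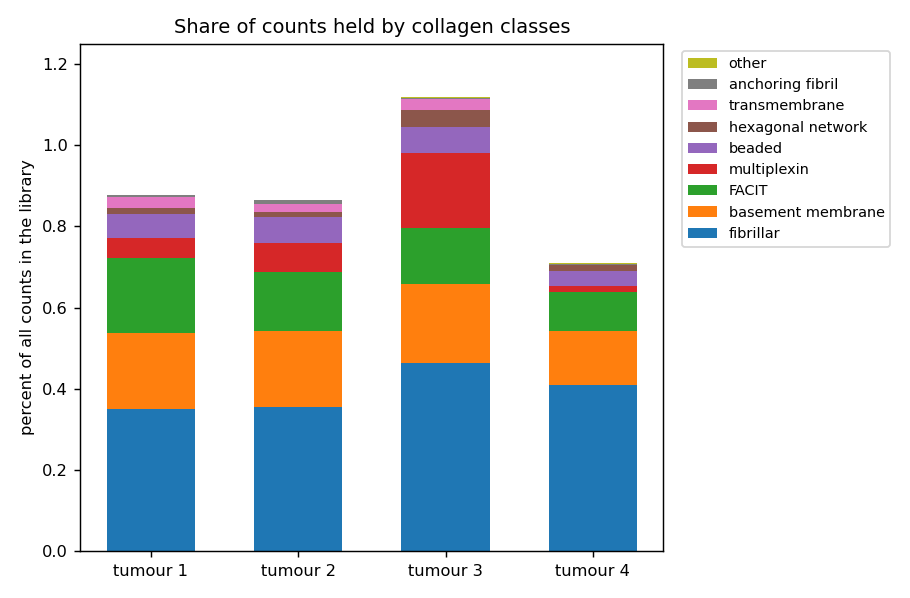
Stacked bars give the percent of all counts in each library that fell on each collagen class, 1 bar per tumour. The whole bar stands at 1.118% in tumour 3 and 0.709% in tumour 4, and the multiplexin segment differs most visibly between these tumours (0.184 and 0.0140% of counts).

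Levels of different genes were compared as CPM per kb of merged exon length, since longer transcripts give more counts. Col1a2 (194 ± 24.0), Col3a1 (189 ± 26.8) and Col1a1 (155 ± 51.9 CPM per kb, SD, n = 4), the chains of the main fibrils of types I and III, led the order, and their ranges over the tumours overlapped. Col9a1 (133 ± 73.2), Col4a1 (123 ± 45.0) and Col18a1 (105 ± 101 CPM per kb, SD, n = 4) came next, and the ranges of neighbours in this stretch overlapped as well. The order of these genes within tumours was not tested. The 3 leading genes held 26.9, 32.1, 30.2 and 49.8% of the collagen counts in tumours 1 to 4. At the other end, 8 members had a mean under 1 CPM, namely 7 of the 8 that failed the filter and Col26a1, which codes for a small, little-studied collagen. Col10a1, the collagen of hypertrophic cartilage, had 0 counts in each library, which allows up to 0.0865 CPM in tumour 2 and less in the others.

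**Figure D2:**
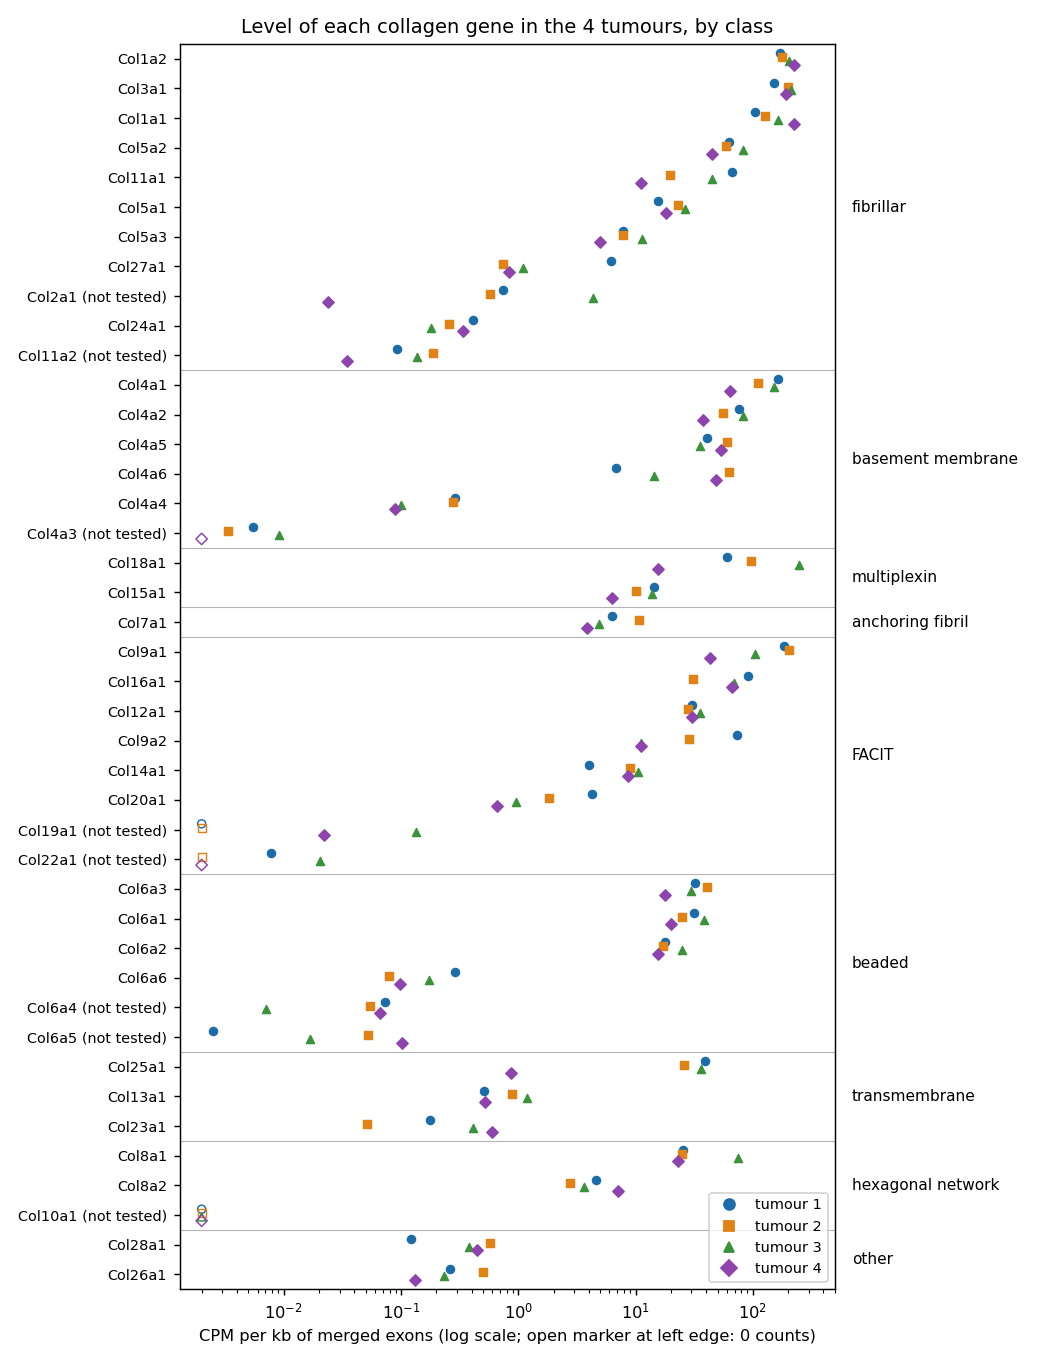
Points give CPM per kb of merged exons on a log scale for the 42 collagen genes in each of the 4 tumours, grouped by class and ordered within a class by mean level, with open markers at the left edge for 0 counts. Col1a2, Col3a1 and Col12a1 form tight clusters. Wide spreads include those of Col2a1 (182-fold), Col25a1 (44.5-fold), Col18a1 (16.1-fold), Col23a1 (11.65-fold) and Col4a6 (9.06-fold).

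To find collagens that set single tumours apart, each gene's spread between the tumours was tested against the trend over genes of like expression (edgeR, Benjamini-Hochberg adjustment over all 15808 genes, threshold 0.05). Over all genes tested, 3.63% passed. Of the 34 tested collagens 6 passed, a share of 17.6%. They were Col11a1 and Col27a1 of the fibrillar class, Col4a6 of basement membranes, the multiplexin Col18a1, the FACIT chain Col9a2 and the transmembrane Col25a1. At an unadjusted p under 0.05 there were 10 of 34, against 8.74% of all genes. DESeq2's rule for dispersion outliers, which marked 0.576% of all genes, marked 0 of the 34. The median SD of log2 CPM was 0.61 over the tested collagens and 0.35 over all genes tested, and the median fold between the highest and the lowest tumour was 2.57 and 1.73. The count of 6 changed when single tumours were left out, as did the share over all genes. Without tumour 1, 2 of 34 collagens passed, where 2.58% of all genes did. Without tumour 4, 3 of 36 collagens passed, where 2.29% of all genes did.

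**Figure D3:**
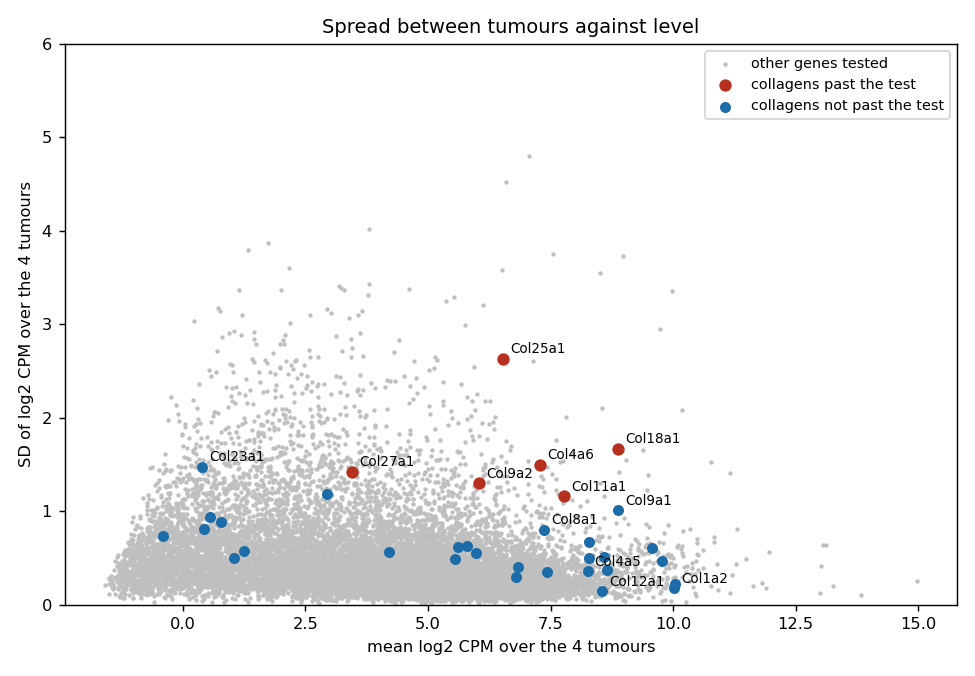
Each point is 1 of 15808 tested genes, with its mean log2 CPM on the x axis and the SD of log2 CPM over the 4 tumours on the y axis; collagens past the test are red and the other tested collagens blue. Col25a1 lies highest among the collagens (SD 2.63), and Col1a2 and Col12a1 lie near the bottom of the cloud (SD 0.18 and 0.14).

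None of the chains of the major fibrils passed the test of spread. Col1a1 had 622, 753, 969 and 1326 CPM in tumours 1 to 4, Col1a2 had 917, 948, 1097 and 1190 CPM, and Col3a1, which joins type I fibrils in pliable tissue, had 838, 1116, 1179 and 1073 CPM. All were lowest in tumour 1, as was the mean deviation of the fibroblast markers. The summed CPM of these markers was instead highest in tumour 1 (265 CPM, against 216 to 245 CPM in the others). The part of fibroblast transcripts in these collagen levels was not tested. The type I chains were highest in tumour 4. The edgeR adjusted p was 1 for each, and the fold range over the tumours was 2.13 for Col1a1, 1.30 for Col1a2 and 1.41 for Col3a1. The type V chains, which start fibrils and limit their width, had another order, with tumour 3 highest for each. Col5a1 had 130, 194, 223 and 154 CPM and Col5a2 had 415, 392, 551 and 295 CPM in tumours 1 to 4. Col5a3 ran from 30.4 CPM in tumour 4 to 69.2 CPM in tumour 3, and Col24a1, a fibrillar chain known from bone and cornea, stayed at 1.28 to 2.92 CPM. These chains did not pass either (edgeR adjusted p = 1 for each).

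Col11a1 and Col27a1 were the fibrillar chains past the test. Col11a1 (Entrez gene 12814, chromosome 3, 114030479 to 114220756, GRCm38), a chain of type XI collagen that nucleates thin fibrils in cartilage and is also made by activated fibroblasts and some tumour cells, had 509, 150, 345 and 85.5 CPM in tumours 1 to 4. Tumours 1 and 3 were high and tumours 2 and 4 low, a 5.95-fold range. Its SD of log2 CPM was 1.16 (edgeR adjusted p = 0.0427). This call was close to the threshold. It did not hold when tumour 1, tumour 2 or tumour 4 was left out (edgeR adjusted p = 0.371, 0.187 and 0.396), with no count filter (0.0589) and with a minimum mean of 5 CPM (0.0545). Col27a1 (Entrez gene 373864, chromosome 4, 63214009 to 63334991, GRCm38), a fibrillar collagen of growing cartilage and epithelia, had 47.3 CPM in tumour 1 and 5.65, 8.29 and 6.33 CPM in tumours 2 to 4. Tumour 1 thus stood apart from the others, which were close together (SD 1.43, edgeR adjusted p = 0.00847, and 1 without tumour 1).

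Type II collagen, the main fibril of cartilage and the partner of types IX and XI there, was scarce. Col2a1 had 160, 101, 852 and 5 counts in tumours 1 to 4, or 3.76, 2.91, 22.2 and 0.122 CPM, and failed the filter through tumour 4. With no count filter it passed (edgeR adjusted p = 0.00047), where 3.79% of 23632 genes did, and 6 of 41 collagens passed, Col2a1 in place of Col11a1. Tumour 3 was high and tumour 4 low. Col11a2, the other type XI chain, had 9 to 41 counts. The 5 cartilage markers summed to 0.219 to 2.22 CPM. Matn1 had 0 counts in each library, Hapln1 had 1 count in tumour 3 and 0 elsewhere, Matn3 had 0 to 15 counts and Acan, the main cartilage proteoglycan, 1 to 13. Cnmd, the most abundant of the 5, had 75, 11, 63 and 6 counts in tumours 1 to 4, or 1.76, 0.317, 1.64 and 0.146 CPM. It was high in tumours 1 and 3 and lowest in tumour 4, as Col11a1 was. The part of such transcripts in the levels of Col2a1, Col9a1 and Col11a1 was not tested.

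The basement membrane class is best seen by its gene pairs. The 6 type IV genes lie head to head in pairs on 3 chromosomes, and each chain assembles with defined partners. Col4a1 and Col4a2, the chains of the common network in all basement membranes, start 21 bases apart on chromosome 8 in RefSeq, so that their promoter windows overlap by 78 bases. Col4a5 and Col4a6, whose chains are found together in some epithelial and smooth muscle basement membranes, start 1343 bases apart on chromosome X. The windows of these genes (250 bases before the start to 50 bases after it, RefSeq, GRCm38.p6, 5′ to 3′ on each gene's own strand) are shown because the pairs differ in how far their chains varied together. Capitals mark the shared 78 bases in the first pair and motif matches in the second. The windows are chr8:11312777-11313076, minus strand, for Col4a1, chr8:11312555-11312854, plus strand, for Col4a2, chrX:141475169-141475468, plus strand, for Col4a5, and chrX:141474027-141474326, minus strand, for Col4a6.
Col4a1: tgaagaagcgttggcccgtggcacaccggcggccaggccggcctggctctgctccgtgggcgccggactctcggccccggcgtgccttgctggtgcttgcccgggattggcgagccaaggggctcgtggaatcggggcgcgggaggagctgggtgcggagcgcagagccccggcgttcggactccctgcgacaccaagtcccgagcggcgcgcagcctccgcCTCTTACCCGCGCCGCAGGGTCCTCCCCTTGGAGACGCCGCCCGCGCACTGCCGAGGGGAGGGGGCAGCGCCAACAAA
Col4a2: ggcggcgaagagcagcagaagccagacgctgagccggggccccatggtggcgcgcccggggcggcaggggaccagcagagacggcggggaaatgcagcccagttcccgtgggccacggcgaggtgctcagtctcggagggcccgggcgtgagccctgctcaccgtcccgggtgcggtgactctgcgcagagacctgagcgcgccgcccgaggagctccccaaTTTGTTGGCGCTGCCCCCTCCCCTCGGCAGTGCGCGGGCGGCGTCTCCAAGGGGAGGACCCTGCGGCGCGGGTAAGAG
Col4a5: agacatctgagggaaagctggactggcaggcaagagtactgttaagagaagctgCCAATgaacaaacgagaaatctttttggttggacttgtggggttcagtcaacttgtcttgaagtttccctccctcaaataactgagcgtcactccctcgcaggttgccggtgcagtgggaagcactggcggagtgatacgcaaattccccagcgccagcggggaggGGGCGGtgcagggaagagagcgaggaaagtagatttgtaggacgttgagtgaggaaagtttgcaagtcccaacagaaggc
Col4a6: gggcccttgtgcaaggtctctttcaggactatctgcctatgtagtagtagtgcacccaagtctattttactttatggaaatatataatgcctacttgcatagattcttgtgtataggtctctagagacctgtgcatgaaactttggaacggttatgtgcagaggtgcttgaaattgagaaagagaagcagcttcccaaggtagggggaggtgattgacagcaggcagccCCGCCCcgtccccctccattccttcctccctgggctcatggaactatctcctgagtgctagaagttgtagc

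The motifs searched on both strands were TATAAA (the core of the TATA box), CCAAT and GGGCGG (a GC box), whose matches did not overlap one another in these 4 windows. None of the 4 windows held TATAAA. The windows of Col4a1, Col4a2 and Col4a5 each held 1 match to CCAAT. The window of Col4a2 held 3 matches to GGGCGG and each of the other windows 1. The Col4a1 and Col4a2 windows were 74.0 and 73.7% G or C, against 52.7% for Col4a5 and 48.3% for Col4a6. Windows were found for 34 of the 42 collagen genes, 37 windows in all. Of these, 62.2% held GGGCGG, against 35.7% of all 32851 windows, while 32.4% against 37.4% held CCAAT and 10.8% against 13.6% held TATAAA. These are matches of letters and say nothing of binding.

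Col4a1 had 1085, 736, 1004 and 426 CPM in tumours 1 to 4, and Col4a2 had 487, 357, 530 and 244 CPM. Both were highest in tumours 1 and 3 and lowest in tumour 4, and the ratio of their counts per kb was 2.17, 2.01, 1.85 and 1.70 in tumours 1 to 4, a 1.28-fold range. The RefSeq genes overlap and no label states whether counting used strand, so reads from the overlap cannot be told apart. Neither passed the test (edgeR adjusted p = 1 for each). Col4a5 had 267, 397, 231 and 353 CPM (edgeR adjusted p = 1), a 1.72-fold range. Col4a6 (Entrez gene 94216, chromosome X, 141165403 to 141474095, GRCm38) had 45.55, 412.5, 95.1 and 325.5 CPM. It was thus high in tumours 2 and 4 and low in tumours 1 and 3, a 9.06-fold range (SD 1.50, edgeR adjusted p = 0.00117, and 0.347 without tumour 1). Their ratio ran 5.97, 0.979, 2.47 and 1.10 in tumours 1 to 4, a 6.10-fold range. Col4a5 and Col4a6 were both higher in tumours 2 and 4 than in tumours 1 and 3, with unequal fold ranges, and the difference between the chains was not tested. Of the chains of the glomerular network, Col4a3 and Col4a4 were scarce, with Col4a3 at 0 to 3 counts and Col4a4 at 0.901 to 2.92 CPM. No ratio was therefore formed between them.

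The multiplexin Col18a1 (Entrez gene 12822, chromosome 10, 77052178 to 77166530, GRCm38) encodes a heparan sulphate proteoglycan of basement membranes whose end fragment is endostatin. It had 406, 657, 1688 and 105 CPM in tumours 1 to 4. Tumour 3 was high and tumour 4 low, a 16.1-fold range (SD 1.67, edgeR adjusted p = 0.000671), and the call was lost without tumour 4 (0.123). In tumour 3 it was the most abundant collagen in CPM. Its relative Col15a1, found in vessel and muscle basement membranes, had 85.8, 60.4, 83.0 and 37.7 CPM, also lowest in tumour 4, and did not pass (edgeR adjusted p = 1). Tumour 3 also held the muscle and Schwann cell transcripts given above, and their part in the level of Col18a1 was not tested. Col7a1, the anchoring fibril that ties epithelial basement membrane to stroma, had 57.8, 98.8, 44.9 and 36.0 CPM, highest in tumour 2 (edgeR adjusted p = 1).

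**Figure D4:**
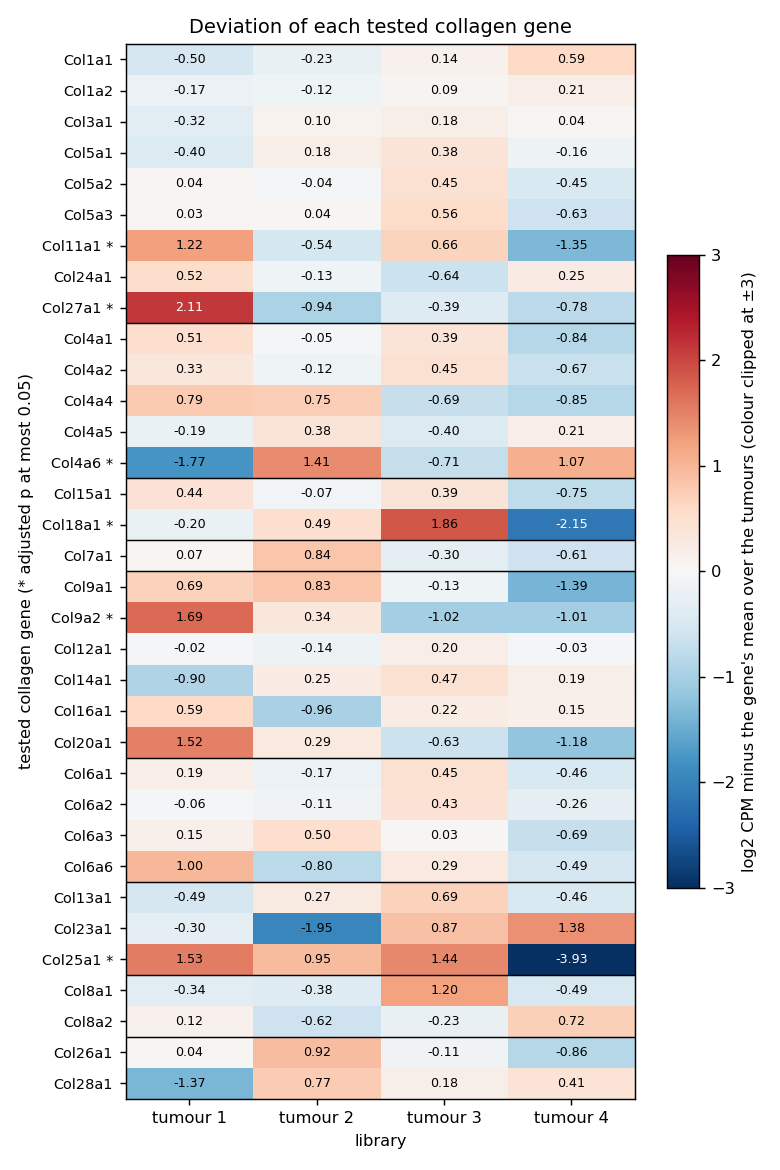
The heat map gives, for the 34 tested collagens in rows by class and the 4 tumours in columns, the deviation of log2 CPM from the mean of that gene, with stars at the 6 genes past the test. The column of tumour 4 is mostly blue, with Col25a1 at -3.93 and Col18a1 at -2.15, while Col27a1 at 2.11 and Col9a2 at 1.69 stand out in tumour 1.

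By mean CPM, the first of the FACIT chains was Col9a1, a chain of the type IX collagen that coats cartilage fibrils. It had 752, 828, 427 and 179 CPM in tumours 1 to 4, high in tumours 1 and 2 and low in tumour 4, and did not pass (edgeR adjusted p = 0.295). Its partner chain Col9a2 (Entrez gene 12840, chromosome 4, 121039566 to 121055325, GRCm38) did, with 213 CPM in tumour 1, 83.7 in tumour 2 and 32.4 and 32.6 in tumours 3 and 4 (SD 1.30, edgeR adjusted p = 0.00228, and 0.871 without tumour 1). Per kb, the ratio of Col9a1 to Col9a2 was 2.51, 7.05, 9.39 and 3.91 in tumours 1 to 4. Col20a1, a FACIT chain of little-known function, also had its highest level in tumour 1, with 22.1, 9.40, 4.93 and 3.36 CPM (edgeR adjusted p = 0.418). Col12a1, which binds type I fibrils in tissue under load, was the steadiest collagen tested, at 369, 339, 431 and 367 CPM (SD of log2 CPM 0.14). Col14a1, another partner of type I fibrils, stood at 26.1 CPM in tumour 1, below the 55.5 to 67.5 CPM of the other tumours. Col16a1 had 470, 160, 363 and 347 CPM, lowest in tumour 2. None of these 3 passed (edgeR adjusted p = 1 for each). Col19a1 had 23 and 4 counts in tumours 3 and 4 and 0 in the others, and Col22a1 at most 7 counts.

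None of the 4 tested beaded filament chains of type VI passed (edgeR adjusted p = 1 for each). Their median SD of log2 CPM was 0.45, and that of all genes tested was 0.35. Col6a1 had 130.5, 102, 156 and 83.0 CPM in tumours 1 to 4, Col6a2 had 107, 103, 150 and 92.6 CPM, and Col6a3, the long chain whose tail is cut off as endotrophin, had 348, 443, 320 and 194 CPM. Tumour 4 was lowest for all 3 chains. The ratio of Col6a1 to Col6a2 per kb was 1.79, 1.44, 1.53 and 1.31, a 1.36-fold range close to that of Col4a1 and Col4a2. Its level rests on the length used, since the mean log2 ratio of 0.59 was 0.05 with coding length. Col6a6, a little-studied type VI chain with the largest SD of the class, had 2.63, 0.721, 1.59 and 0.901 CPM, and Col6a4 and Col6a5 had at most 39 counts in any library.

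Col25a1 (Entrez gene 77018, chromosome 3, 130180358 to 130599884, GRCm38), a transmembrane collagen best known from neurons and from innervation of muscle, had the widest spread of the tested collagens. It had 268, 178.5, 251 and 6.015 CPM in tumours 1 to 4, or 11381, 6189, 9635 and 247 counts. Tumours 1 to 3 were close together and tumour 4 stood far below each, a 44.5-fold range. The SD of log2 CPM was 2.63 (edgeR adjusted p = 1.025e-07), and without tumour 4 it was 0.31 (adjusted p = 1). It was also the 1 collagen past the test with Holm adjustment, where 198 of 15808 genes passed. Tumour 4 was the library with the most basal keratin transcripts, and whether that has a part in the level of Col25a1 was not tested. The other transmembrane chains were scarce and had other orders. Col13a1, which is found at neuromuscular and cell-matrix junctions, had 1.65 to 3.81 CPM (edgeR adjusted p = 1), and Col23a1 had 1.01, 0.288, 2.35 and 3.36 CPM, highest in tumour 4 (edgeR adjusted p = 0.208).

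Of the hexagonal network collagens, Col8a1, made by vessel walls and by some tumours, had 379 CPM in tumour 3 and 131, 127 and 118 CPM in tumours 1, 2 and 4 (SD 0.80, edgeR adjusted p = 0.342). Its partner Col8a2 had 20.1, 12.1, 15.8 and 30.6 CPM (edgeR adjusted p = 1) and was highest in tumour 4, so the ratio per kb ran from 3.27 in tumour 4 to 20.3 in tumour 3. Endothelial markers did not set tumour 3 apart, with sums of 222, 171, 198 and 168 CPM in tumours 1 to 4. The 6 smooth muscle markers summed to 335 CPM in tumour 3 and to 129.5 to 195 CPM in the others. Of that sum Des had 124 CPM in tumour 3, against 4.49 to 6.81 CPM in the others. The skeletal muscle markers given above were likewise high in tumour 3 alone. The part of these transcripts in the level of Col8a1 was not tested. Col28a1, a collagen known from peripheral nerve, had 0.517, 2.45, 1.62 and 1.90 CPM in tumours 1 to 4 and Col26a1 0.365 to 1.38 CPM (edgeR adjusted p = 1 for each).

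Across classes, tumour 4 was the lowest for 17 of the 34 tested collagens, where it was for 27.8% of all genes tested, and tumour 3 was the lowest for 3 (8.82%, against 27.7%). Tumour 3 was the highest for 12 (35.3%, against 29.7%) and tumour 4 for 4 (11.8%, against 28.5%). The mean deviation of the 34 genes in log2 CPM was 0.19, 0.06, 0.20 and -0.45 in tumours 1 to 4, where that of all genes tested was within -0.01 to 0.02. Without tumour 4 the SD of these means was 0.08, against 0.31 with it. Of the 4 exceptions with their highest value in tumour 4, Col1a1 and Col1a2 were among the most abundant collagens, and the others were Col8a2 and Col23a1. Members that assemble with one another did not always share an order of tumours, as the chain ratios show.

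**Figure D5:**
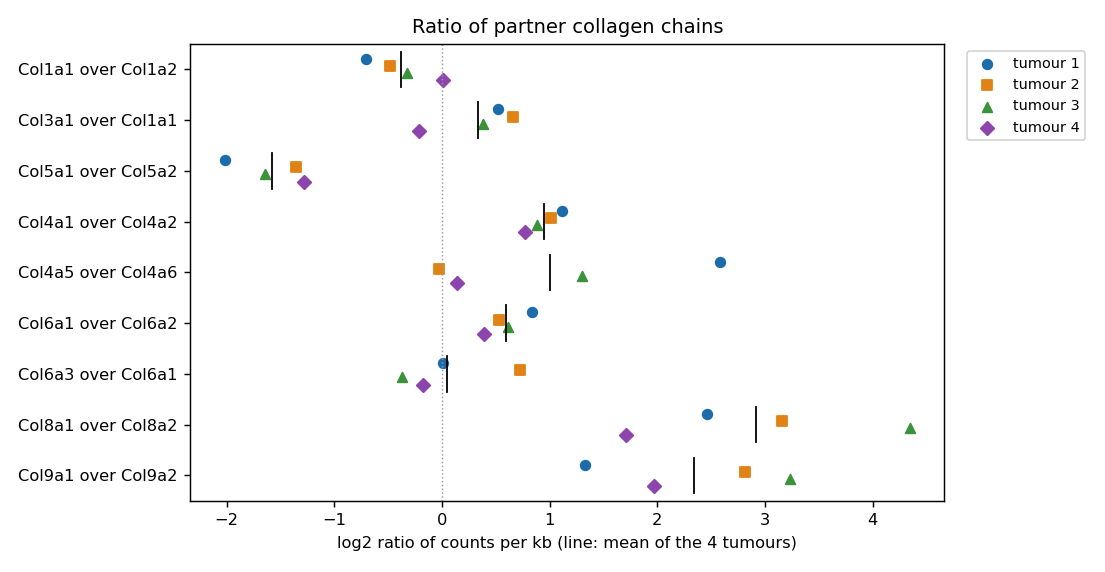
Points give the log2 ratio of counts per kb for 9 pairs of partner chains in each tumour, with the mean of the 4 tumours as a line. Col4a1 over Col4a2 spans 0.77 to 1.12 and Col6a1 over Col6a2 0.39 to 0.84, while Col4a5 over Col4a6 spans -0.03 to 2.58 and Col8a1 over Col8a2 1.71 to 4.35.

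The ratio of Col1a1 to Col1a2, the chains of the type I molecule, was 0.611, 0.716, 0.797 and 1.005 per kb in tumours 1 to 4, so the Col1a2 transcript was in excess or level. That of Col3a1 to Col1a1 was 1.44, 1.58, 1.30 and 0.862, below 1 in tumour 4 only. Col5a1 stayed below Col5a2 in each tumour, at 0.247 to 0.411. Col6a3 over Col6a1 was 0.774 to 1.65, on either side of 1.

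Genes that modify, export, process, cross-link and bind collagen were read from a list of 77, of which 72 passed the filter. Of these 4 passed the test (5.56%, where 3.63% of all genes did). They were the cross-linking enzymes Loxl3 and Pxdn, the fibril partner Tnxb and the transcription factor Twist1. Pxdn, a peroxidase that forms sulfilimine cross-links in type IV collagen, had 293, 175, 545.5 and 80.9 CPM in tumours 1 to 4, highest in tumour 3 and lowest in tumour 4. Its edgeR adjusted p was 0.0391, or 0.131, 0.327 and 0.501 when tumour 2, 3 or 4 was left out. Loxl3, a lysyl oxidase, had 92.3, 48.4, 136 and 22.0 CPM in the same order of tumours (edgeR adjusted p = 0.0478, but 0.0615 to 0.701 when any 1 tumour was left out). With no count filter the adjusted p was 0.0619 for Pxdn and 0.0728 for Loxl3 (edgeR). Col18a1 was likewise highest in tumour 3 and lowest in tumour 4. Tnxb, a tenascin that binds fibrils, had 61.2 CPM in tumour 2 and 1.29, 3.18 and 7.92 CPM in tumours 1, 3 and 4 (edgeR adjusted p = 7.12e-08, and 0.865 without tumour 2), and tumour 2 also held the most adipocyte transcripts, 22.6 CPM over 5 markers against 2.52 to 6.70 CPM. Their part in it was not tested. Twist1, a factor of mesenchymal cells, had 4.75, 0.981, 16.8 and 1.05 CPM (edgeR adjusted p = 0.00768, but 0.113 when tumour 2 and 0.428 when tumour 3 was left out).

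The enzymes and chaperones that fold collagen in the endoplasmic reticulum did not pass (0 of 19, where 3.63% of all genes passed). Their most abundant member was P4hb, a subunit of prolyl 4-hydroxylase, at 918 CPM on average and 830 to 1095 CPM over the tumours (edgeR adjusted p = 1). Serpinh1, the collagen chaperone HSP47, had 540.2, 372.5, 419.7 and 97.4 CPM (edgeR adjusted p = 0.178), and the lysyl hydroxylase Plod1 had 341, 165, 189 and 65.8 CPM (edgeR adjusted p = 0.195). Both were lowest in tumour 4, as were 17 of the 34 tested collagens and 27.8% of all genes tested. These genes were chosen after their values were seen. The mean deviation of all 19 genes in log2 CPM was 0.30, -0.10, 0.31 and -0.52 in tumours 1 to 4. Not every gene was lowest in tumour 4, since Plod3 was lowest in tumour 1 and Colgalt1 was highest in tumour 4. By mean level again, export genes were led by Mia3, the receptor that loads procollagen for secretion (221 to 311 CPM). Propeptide proteases were led by Furin (120 to 244 CPM) and receptors by the integrin chain Itgb1 (531 to 603 CPM). These groups had 0 of 5, 0 of 9 and 0 of 10 past the test. At the 3.63% of all genes that passed, 0 in lists this short, or in the 19 above, sets none of them apart. Also by mean level, Postn came first among the fibril partners, at 363 to 588 CPM, and Tgfb3 among the regulators, at 97.7 to 250.3 CPM (edgeR adjusted p = 1 for each). Sparc exceeded Postn in tumours 1 and 3, and Ccn2 exceeded Tgfb3 in tumour 3.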

How the data were processed

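Poly-A RNA from 4 tumours was sequenced, and the authors deposited raw read counts per gene for each tumour. FastQC and the mouse builds GRCm38 and mm10 are named, per the submitters' processing notes. For the aligner, the counter, the annotation and the strand setting, nothing is stated in these sources. Libraries held 35220504 to 42809015 counts, and 3 counts correspond to 0.0706 to 0.0865 CPM. Low genes were dropped with filterByExpr of edgeR 4.0.16 (R 4.3.3, minimum count 10, minimum total 15), libraries were scaled by TMM, and a negative binomial model with 1 mean per gene was fitted at the trended dispersion. Chi-square p-values of its deviance were adjusted by Benjamini-Hochberg over 15808 genes (threshold 0.05). Log2 CPM used a prior count of 2. DESeq2 1.42.0 supplied dispersion outliers. Gene lengths are merged exons of protein-coding transcripts in a GENCODE annotation of GRCm38, and promoter windows come from RefSeq. Values per tumour are given for collagens past the test, for the most abundant and most variable gene of each class and for chain partners, and, of related genes, for those past the test or most abundant in their group. Values of other genes in each tumour (such as Col2a1, Col12a1, Col20a1, Serpinh1 and Plod1) were chosen after they were seen. The members and lists were chosen with earlier results of these data known. Alternatives were other scalings, count filters, prior counts and adjustments, and leaving out each tumour.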

Additional observations from a re-analysis of the deposited data

Results flagged for a closer look

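In 4 of 63 values checked over the 4 tumours, the highest or lowest tumour lay apart from the rest by a gap, as a share of the whole range, above Dixon's 95% critical value, which chance does in about 1 in 20 groups. Tumour 4 was low for log2 CPM of Col25a1, with a gap of 0.893 of the range, and for the basement membrane share of counts, with a gap of 0.901. Tumour 3 was high for log2 CPM of Col8a1, with a gap of 0.911, and for the share of counts in hexagonal network collagens, of which Col8a1 holds most, with a gap of 0.952.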

How the results depend on the processing

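Scaling by RLE or by library size alone left 6 collagens past the edgeR test, which the prior count of log2 CPM does not enter. Holm adjustment left 1 and DESeq2's outlier rule 0, and leaving out 1 tumour at a time gave 2 to 6. Of the related genes, 4 passed, against 2 with no count filter and 2 with a minimum mean of 5 CPM. Of these genes 1 passed with Holm adjustment, 1 by DESeq2 and 0 to 3 with 1 tumour left out. The share over all genes was 3.63% in the main setting, 3.79% with no count filter and 4.15% with the minimum mean. It was 2.29 to 2.58% with 1 tumour left out and 0.576% by DESeq2, and Holm adjustment left 198 of 15808 genes. Under these last 3 settings fewer of all genes passed too. Without its most abundant gene, the mean share of counts was 0.290% for the fibrillar class (without Col3a1), 0.0937% for basement membrane (Col4a1), 0.0067% for multiplexin (Col18a1), 0.0865% for FACIT (Col9a1), 0.0234% for beaded (Col6a3), 0.000427% for transmembrane (Col25a1), 0.00196% for hexagonal network (Col8a1) and 7.81e-05% for the remaining class (Col28a1). With no length correction, mean log2 ratios were -1.23 for Col5a1 over Col5a2, 0.0416 for Col6a1 over Col6a2 and 1.45 for Col6a3 over Col6a1. With coding length, chosen after seeing the data, Col6a1 over Col6a2 was 0.0542. No paired analysis was possible because the tumours form 1 group. With 4 tumours, a call can rest on 1 of them, and 8 collagens without about 10 counts in every library were not tested with that filter.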
